A study of Rattus norvegicus with 6 samples.

Results

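The genes described here are 8 mammary epithelial keratins, 4 of the luminal layer (Krt7, Krt8, Krt18 and Krt19) and 4 of the basal layer (Krt5, Krt14, Krt15 and Krt17). They were chosen by gene symbol, each had 1 row among the 32545 genes of the deposited table, and all 8 passed the filter on low values, a mean of at least 1 FPKM, which kept 13631 genes. FPKM counts fragments per kilobase of gene after scaling for depth. Expression was measured by RNA sequencing in 6 mammary tumors of female Sprague-Dawley rats, 3 of rats given diallyl trisulfide (DATS), a sulfur compound from garlic, and 3 of rats given the corn oil vehicle. Every rat had received the carcinogen N-methyl-N-nitrosourea (MNU), an alkylating agent, at 50 mg/kg into the peritoneum on day 21 of life. Gavage began 1 week later and was given 5 times a week for 10 weeks, with DATS at 50 mg/kg in corn oil in the DATS group and 100 µL of corn oil in the vehicle group. Whether each tumor came from its own rat is not in the labels, so p-values measure the spread between these tumors, which may be partly technical.

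Keratins are the intermediate filament proteins of epithelial cells, and each filament is built from pairs of a type I and a type II keratin. In the mammary gland the luminal cells that line ducts and alveoli make mainly Krt8 (type II) with Krt18 and Krt19 (type I), and Krt7 is a further type II keratin of simple epithelia. The basal and myoepithelial cells around them make Krt5 (type II) with Krt14 (type I), while Krt15 and Krt17 are type I keratins of basal cells in stratified epithelia and of hair follicles. Antibodies to these proteins are used by pathologists to tell luminal from basal breast tumors.

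The sequence before the annotated gene start is printed for 3 of the 8 genes. These were Krt8 and Krt18, the main luminal pair, and Krt5, the basal type II keratin. Only these had an entry among the gene start sequences used (assembly GRCr8). Krt7, Krt14, Krt15, Krt17 and Krt19 had no such entry. For Krt8, whose annotated start falls on an ATG, the last 80 bases before it are not printed. Capitals mark matches to a TATA box (TATAAA), a GC box (GGGCGG), an AP-1 motif (TGANTCA) or a CCAAT box (CCAAT) on either strand, and each run is written 5′ to 3′ on the strand of the gene.
Krt8, chr7:135010420-135010589, minus strand, positions -250 to -81: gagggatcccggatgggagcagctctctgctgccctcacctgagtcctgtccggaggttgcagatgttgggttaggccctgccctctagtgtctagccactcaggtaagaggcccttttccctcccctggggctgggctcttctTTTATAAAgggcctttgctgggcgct
Krt18, chr7:135035918-135036167, plus strand, positions -250 to -1: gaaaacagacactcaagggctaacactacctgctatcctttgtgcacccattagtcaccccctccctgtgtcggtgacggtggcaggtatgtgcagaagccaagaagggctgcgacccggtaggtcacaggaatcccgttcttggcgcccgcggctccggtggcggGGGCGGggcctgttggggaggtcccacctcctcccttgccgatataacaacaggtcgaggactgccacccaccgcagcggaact
Krt5, chr7:134730570-134730819, minus strand, positions -250 to -1: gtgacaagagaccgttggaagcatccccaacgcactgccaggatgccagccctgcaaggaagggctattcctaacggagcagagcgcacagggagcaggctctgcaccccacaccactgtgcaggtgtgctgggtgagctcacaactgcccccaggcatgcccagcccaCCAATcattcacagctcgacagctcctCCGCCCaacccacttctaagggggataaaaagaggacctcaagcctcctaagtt
The Krt8 stretch held a TATA box on each strand, overlapping each other, the Krt18 stretch a GC box, and the Krt5 stretch a GC box on the opposite strand and a CCAAT box. Over the 33469 gene starts in the sequences used, 12.9% held a TATA box and 30.5% a GC box within the 250 bases before the start. An AP-1 motif was held by 6.34% and a CCAAT box by 34.0%. All 250 bases were searched for Krt8 too, of which 170 are shown. These are matches of letters and describe no binding. In GRCr8 Krt8 and Krt18 are neighbours with 1 other annotated gene starting between them.

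All 8 keratins were strongly expressed in every tumor, the lowest single value being 62.2 FPKM, for Krt7 in vehicle tumor 2. Between 1808 and 35677 reads per gene and tumor stood behind these values, as recovered from the deposited FPKM, out of 13531587 to 16868678 reads per tumor. By mean level over the 6 tumors the order was Krt8 (669.6 FPKM), Krt18 (619), Krt5 (360.1), Krt19 (324), Krt17 (268), Krt15 (195), Krt14 (155) and Krt7 (123). The ranges of neighbours in this order overlapped with 1 exception, since Krt18 was above Krt5 in 6 of 6 tumors and their ranges were apart. Krt8 was above Krt18 in 3 of 6 tumors, and Krt15 was above Krt14 in 3 of 6. The 8 genes made up between 96.7% and 99.1% of the summed FPKM of all 47 keratin genes in the table.

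**Figure D1:**
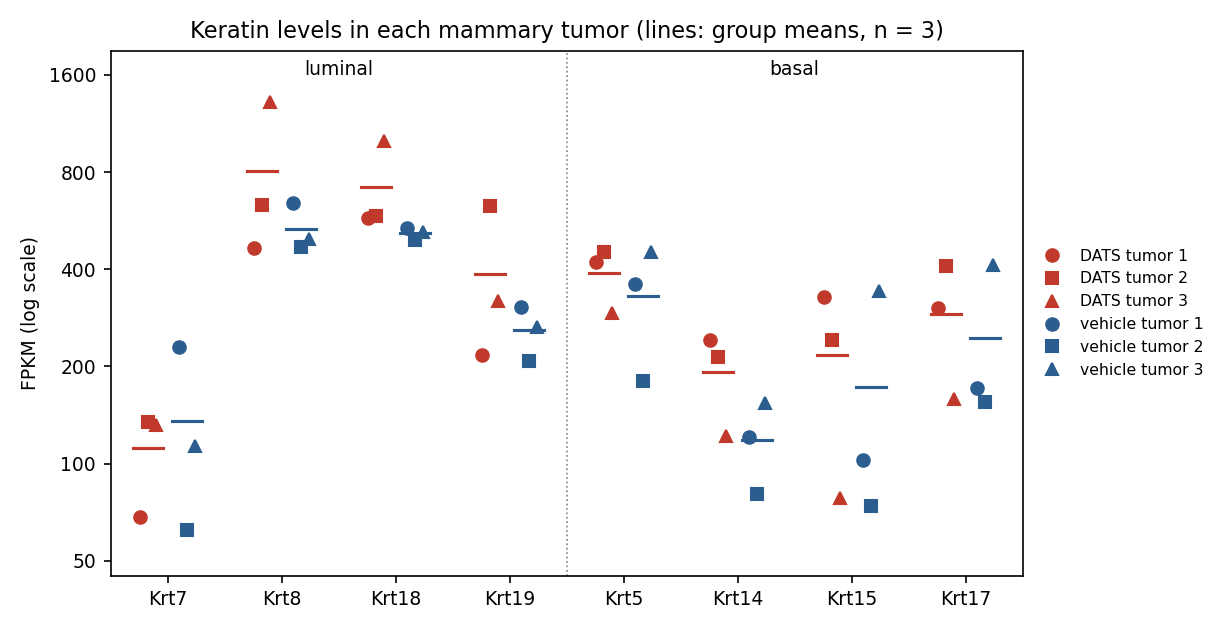
FPKM (log scale) of the 4 luminal and 4 basal keratins in each tumor, DATS in red and vehicle in blue, with lines at group means (n = 3). DATS tumor 3 stands apart for Krt8 and Krt18, at 1315 and 1001 FPKM, and vehicle tumor 2 is lowest for 7 of the 8 genes, all but Krt8.

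No keratin passed the test between DATS and vehicle tumors. The fit was made with limma on log2(FPKM + 1) over all 13631 genes, with Benjamini-Hochberg adjustment, and called 0 of them at an adjusted p under 0.05, so that the background of called genes was 0%. At an unadjusted p under 0.05 there were 0 of the 8 keratins and 797 genes (5.85%), and 0 genes were called by limma-voom from the recovered reads, with 704 (5.16%) at an unadjusted p under 0.05. The log2 difference, DATS minus vehicle, was above 0 for 7 of the 8 keratins, against 49.2% of all genes tested, and the adjusted p-values of the 8 ran between 0.819 and 0.976. Each 95% interval of the 8 reached above 1 on the log2 scale, so the test does not show that the groups were alike.

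Among the luminal keratins, the type II keratin Krt8 had 467, 632 and 1315 FPKM in DATS tumors 1, 2 and 3, against 641, 467 and 495 FPKM in vehicle tumors 1, 2 and 3. The high value of DATS tumor 3 set the group mean, and the other tumors of both groups overlapped. Its log2 difference was 0.46 ± 0.39 (SE), with a 95% interval of -0.48 to 1.41 and a limma adjusted p of 0.861, and without DATS tumor 3 it was 0.04. Krt18, the type I partner of Krt8, had 578, 586 and 1001 FPKM in DATS tumors, against 536, 493 and 521 FPKM in vehicle tumors. It was the only keratin of the 8 whose groups did not overlap, which held for 1666 of all genes tested (12.2%), 6.72% with DATS higher and 5.5% with DATS lower. The log2 difference of Krt18 was 0.43 ± 0.25 (SE), with a 95% interval of -0.17 to 1.04 and a limma adjusted p of 0.842. It was 0.17 without DATS tumor 3.

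Krt19, a short type I keratin that lacks the usual tail domain, had 217, 628 and 318 FPKM in DATS tumors, against 305, 208 and 265 FPKM in vehicle tumors. DATS tumor 2 was highest, DATS tumor 1 lay within the vehicle range, and without DATS tumor 2 the log2 difference of 0.45 ± 0.40 (SE) was 0.04. Krt19 stood at 1.07 times the level of Krt18 in DATS tumor 2 and at 0.318 to 0.570 times that level in the other tumors. Krt7 had 68.4, 135 and 131 FPKM in DATS tumors, against 230.0, 62.2 and 113 FPKM in vehicle tumors. It was the only keratin of the 8 with a mean below that of vehicle tumors (log2 difference -0.14 ± 0.51, SE), and the sign turned when vehicle tumor 1 was left out (0.34) or DATS tumor 1 was (0.18). Vehicle tumor 1, the highest for Krt7, also held skeletal muscle genes, whose 7 listed markers summed to 1334 FPKM there and to 18.9 to 42.4 FPKM in the other tumors; the part of this in the Krt7 value was not tested.

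The basal type II keratin Krt5, the partner of Krt14, had 422, 454 and 292 FPKM in DATS tumors, against 360.0, 181 and 452 FPKM in vehicle tumors. The groups overlapped over most of their range, and the log2 difference of 0.31 ± 0.37 (SE) turned to -0.08 without vehicle tumor 2. Krt14, the type I partner of Krt5, had 241, 213 and 122 FPKM in DATS tumors, against 121, 80.7 and 155 FPKM in vehicle tumors. DATS tumors 1 and 2 lay above every vehicle tumor and DATS tumor 3 lay within the vehicle range. Its log2 difference, 0.68 ± 0.34 (SE), was the largest of the 8, with a 95% interval of -0.14 to 1.4997 and a limma adjusted p of 0.819, and it ran between 0.43 and 0.98 when 1 tumor was left out.

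Krt15, a type I keratin of basal and hair follicle stem cells, had 329, 242 and 78.3 FPKM in DATS tumors, against 103, 74.1 and 343 FPKM in vehicle tumors. Both groups held high and low tumors, 4.63 times apart at the extremes, and the log2 difference was 0.42 ± 0.73 (SE; 95% interval -1.34 to 2.17). Krt17, a type I keratin that is induced in wounded and proliferating epidermis, had 304, 408 and 159 FPKM in DATS tumors, against 171, 155 and 411 FPKM in vehicle tumors. The tumors high for Krt15, which were DATS tumors 1 and 2 and vehicle tumor 3, were also the 3 highest for Krt17, for which the log2 difference was 0.28 ± 0.49 (SE). Without vehicle tumor 2 the differences were -0.03 for Krt15 and 0.03 for Krt17, and without DATS tumor 3 they were 1.03 and 0.67. Krt15 varied more over the 6 tumors than most genes: its SD of log2 values was 1.03, the median SD of all genes tested was 0.30, and 4.57% of genes had a larger one. Krt14, Krt15 and Krt17 are alike in sequence, and the handling of reads shared between keratins is unknown, so the levels of single type I keratins are uncertain to that extent.

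**Figure D2:**
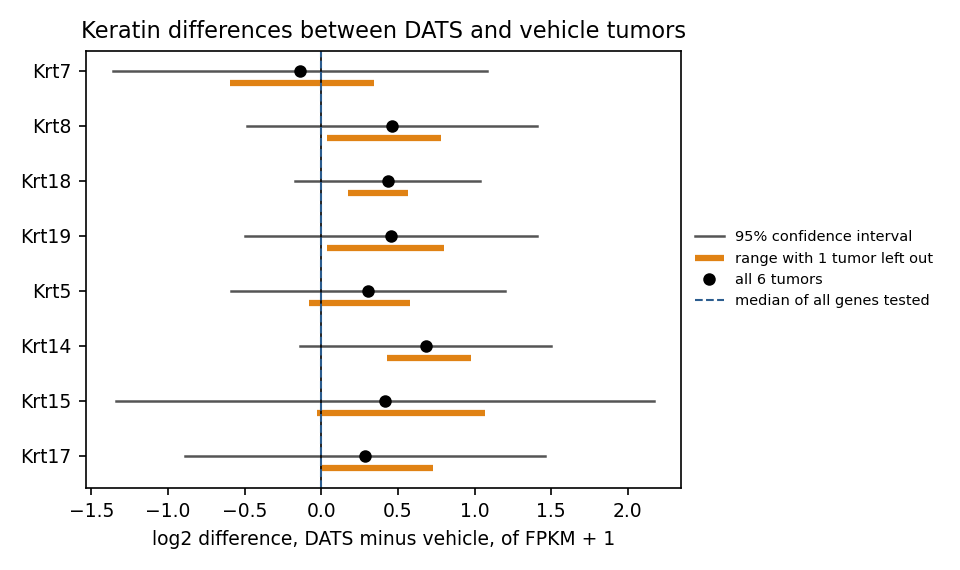
Log2 difference of FPKM + 1, DATS minus vehicle, of each keratin (black point) with its 95% interval (grey) and the range when 1 tumor is left out (orange); the dashed line is the median of all genes tested. Every interval includes 0, and the points lie between -0.14 for Krt7 and 0.68 for Krt14.

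As groups, the luminal keratins were above 0 for 3 of 4 genes with a median log2 difference of 0.44, and the basal keratins for 4 of 4 genes with a median of 0.36, beside a median of -0.0048 over all genes tested. Leaving out DATS tumor 3 gave a luminal median of 0.10, and leaving out DATS tumor 1 gave 0.68. For the basal median, leaving out vehicle tumor 2 gave -0.00056, DATS tumor 1 gave 0.22, DATS tumor 2 gave 0.20, DATS tumor 3 gave 0.82 and vehicle tumor 3 gave 0.81. With the tumors rescaled to equal FPKM totals the median of all genes moved to -0.16, and the medians of the keratin groups to 0.26 and 0.18. The sign for each of the 8 genes was the same under equal totals and under quantile normalization as with the deposited scaling.

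The balance of luminal and basal keratins differed between single tumors much more than between the treatment groups. The 4 luminal keratins summed to 1330.1, 1981 and 2766 FPKM in DATS tumors 1, 2 and 3, against 1712, 1231 and 1394 FPKM in vehicle tumors 1, 2 and 3. The 4 basal keratins summed to 1297, 1317 and 651 FPKM in DATS tumors, against 755, 490.4 and 1361 FPKM in vehicle tumors. Luminal keratins thus stood at 1.03, 1.503 and 4.25 times the basal ones in DATS tumors, against 2.27, 2.51 and 1.02 times in vehicle tumors. In DATS tumor 1 and vehicle tumor 3 the classes were about level, while in DATS tumor 3 luminal keratins made up 80.9% of the 8 genes' FPKM. The luminal share averaged 63.9% ± 15.5 in DATS tumors and 63.8% ± 11.5 in vehicle tumors (SD, n = 3 each).

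On the log scale the balance was the mean log2(FPKM + 1) of the luminal keratins minus that of the basal keratins. It was -0.33, 0.43 and 1.73 in DATS tumors, against 1.24, 1.03 and -0.09 in vehicle tumors. The group means were 0.61 ± 1.05 in DATS tumors and 0.73 ± 0.71 in vehicle tumors (SD, n = 3 each), a difference of -0.12, which is smaller than the spread within either group. The difference took either sign when 1 tumor was left out, from -0.68 (DATS tumor 3 left out) to 0.35 (DATS tumor 1 left out). Leaving out vehicle tumor 3 gave -0.53, vehicle tumor 1 gave 0.13, DATS tumor 2 gave -0.03 and vehicle tumor 2 gave 0.03. Since the tumors are bulk samples, fewer cells of a layer and less keratin RNA per cell cannot be told apart.

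**Figure D3:**
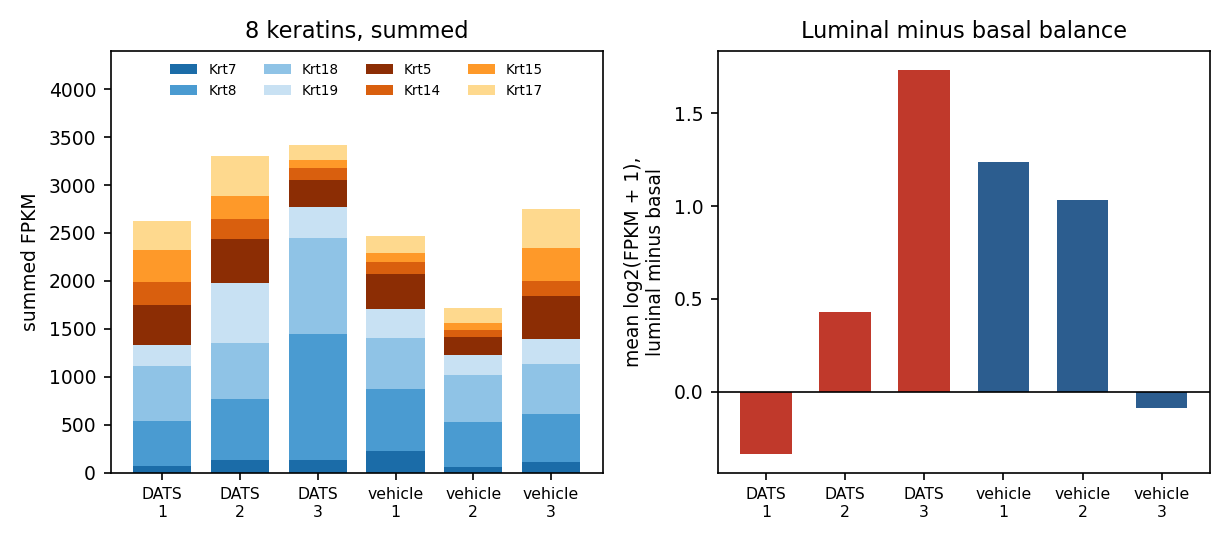
Left, summed FPKM of the 8 keratins in each tumor, luminal genes in blue shades and basal genes in brown and orange shades; right, mean log2(FPKM + 1) of the luminal minus that of the basal keratins, DATS in red and vehicle in blue. DATS tumor 1 is lowest, at -0.33, DATS tumor 3 is highest, at 1.73, and the groups overlap.

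The proportions of partner keratins were compared within tumors, as filaments need both types. Krt8 stood at 0.808, 1.08 and 1.31 times Krt18 in DATS tumors, against 1.197, 0.947 and 0.949 times in vehicle tumors. This ratio stayed near 1 in each tumor, and the groups overlapped. Krt5 stood at 1.75, 2.13 and 2.40 times Krt14 in DATS tumors, against 2.98, 2.24 and 2.92 times in vehicle tumors, with overlap of DATS tumor 3 and vehicle tumor 2. All 3 basal type I keratins together had 2.07, 1.90 and 1.23 times the FPKM of Krt5 in DATS tumors, against 1.10, 1.71 and 2.01 times in vehicle tumors. Over the 8 genes, the type I sum was 1.74, 1.70 and 0.965 times the type II sum in DATS tumors, against 1.004, 1.42 and 1.60 times in vehicle tumors. Within these 8 genes, type I transcripts were near level with type II in DATS tumor 3 and vehicle tumor 1. They exceeded type II in the other tumors of both groups. Only Krt5, Krt7 and Krt8 of the 8 are type II, and keratins without a row, such as Krt6a and Krt6b, are not counted. The sums therefore do not measure the balance of all partners.

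Across the 6 tumors the correlations were high among basal keratins and lower between luminal and basal keratins. Pearson's r of log2(FPKM + 1) was computed for all 28 pairs, and it lay between 0.79 and 0.94 in the 6 pairs of basal keratins, between 0.20 and 0.94 in the 6 luminal pairs and between -0.50 and 0.46 in the 16 mixed pairs. The mixed values depended on which tumors were included: without the 2 tumors farthest from the median of the luminal gene they lay between -0.99 (Krt19 and Krt14, against 0.39 with all 6 tumors) and 0.83 (Krt18 and Krt14, against 0.02). Krt15 and Krt17 each split the tumors into 3 high ones (DATS tumors 1 and 2 and vehicle tumor 3) and 3 low ones, so r for pairs with either gene describes that split, and a relation within it was not tested. For the partners Krt5 and Krt14 r was 0.87 (exact permutation p = 0.0306, adjusted 0.202; Spearman's rho 0.77, p = 0.103, adjusted 0.320), and 0.63 without DATS tumor 3 and vehicle tumor 2. The partners Krt8 and Krt18 had an r of 0.94 (exact permutation p = 0.0667, adjusted 0.267; rho 0.54, p = 0.297, adjusted 0.711), and 0.82 without DATS tumors 1 and 3. Of the 28 pairs 5 had a two-sided exact permutation p under 0.05, all 5 of them between basal keratins, and 0 passed after Benjamini-Hochberg adjustment over the 28 (lowest adjusted p 0.156). All 28 relations share the same 6 tumors and their scaling.

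**Figure D4:**
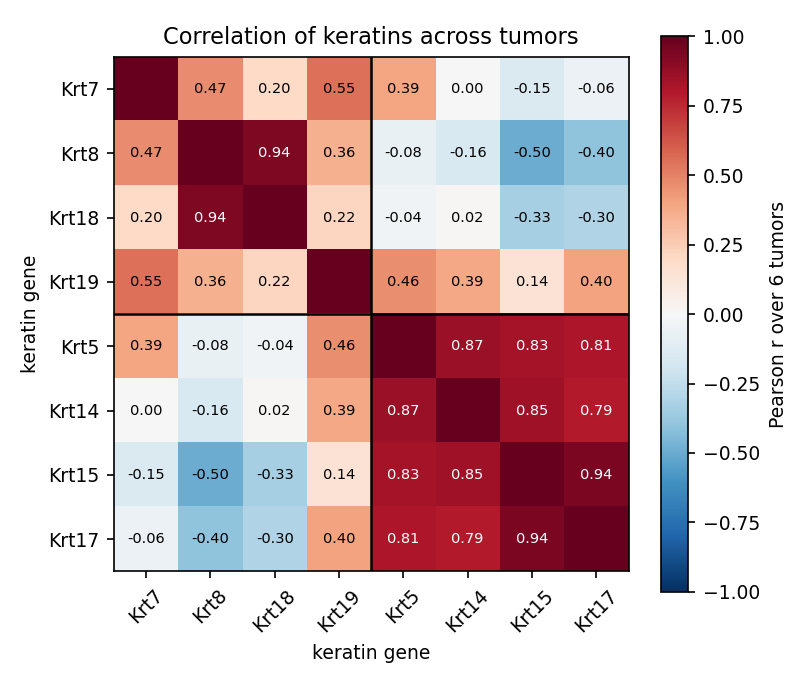
Pearson r of log2(FPKM + 1) over the 6 tumors for each pair of keratins, red for positive and blue for negative, with lines between the luminal and the basal genes. The 6 basal pairs lie between 0.79 and 0.94 and the mixed pairs between -0.50 and 0.46.

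Other genes of the luminal and basal layers were read from fixed lists, chosen with earlier results of these data known. Basal and myoepithelial genes other than keratins, which include the smooth muscle contractile genes of myoepithelial cells, followed the basal keratins over the tumors. Their mean log2(FPKM + 1) was 5.81, 5.68 and 4.73 in DATS tumors, against 4.81, 4.59 and 5.42 in vehicle tumors. DATS tumors 1 and 2 and vehicle tumor 3 were the 3 highest tumors for these genes and for the basal keratins alike. Acta2, smooth muscle actin, had 1541, 1459 and 605 FPKM in DATS tumors, against 406, 590.2 and 1007 FPKM in vehicle tumors, and Tagln, Myl9 and Cnn1 were the next most abundant. Of 14 such genes tested 12 had a log2 difference above 0, against 49.2% of all genes. Their median was 0.29, and 0 passed the test. Vascular smooth muscle also makes several of them, and its part was not tested.

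Luminal genes other than keratins had a mean log2(FPKM + 1) of 5.45, 5.23 and 5.07 in DATS tumors, against 5.14, 4.55 and 5.18 in vehicle tumors. This order differed from that of the luminal keratins, as DATS tumor 1 was highest for the other luminal genes and next to lowest for the keratins. The most abundant was Epcam, an epithelial cell adhesion protein, with 657, 569 and 704 FPKM in DATS tumors, against 609, 463 and 586 FPKM in vehicle tumors. Cldn3 and Cldn7, tight junction proteins, had log2 differences of 0.92 and 0.72, and Cd24, a surface glycoprotein of luminal cells, one of 0.22. Of 24 luminal genes tested 20 were above 0 and 4 below, against 49.2% of all genes above 0, with a median of 0.25. Unadjusted limma p-values were under 0.05 for 5 of the 24, against 5.85% of all genes. The groups lay apart with DATS higher for 4 of the 24, against 6.72% of all genes, and with DATS lower for 0, against 5.5%. After adjustment 0 passed the test. Set against Epcam in the same tumor, luminal keratins stood at 2.02, 3.48 and 3.93 times its FPKM in DATS tumors, against 2.81, 2.66 and 2.38 times in vehicle tumors. The basal keratins stood at 1.97, 2.31 and 0.924 times Epcam in DATS tumors, against 1.24, 1.06 and 2.32 times in vehicle tumors, so that the groups overlapped in both measures.

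**Figure D5:**
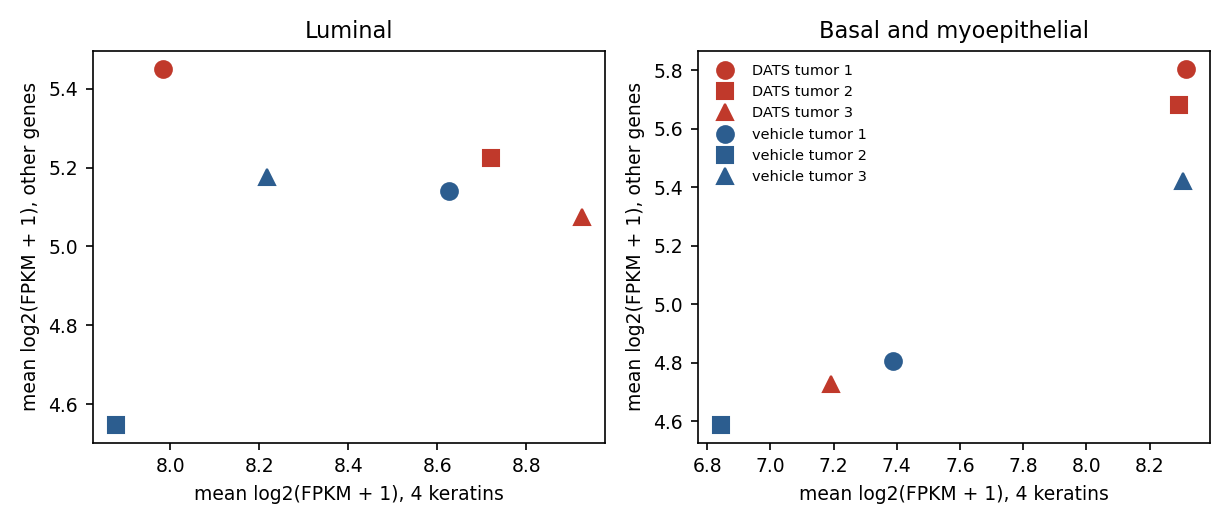
Mean log2(FPKM + 1) of the 4 keratins of a layer (horizontal) and of other genes of that layer (vertical) in each tumor, luminal at left and basal at right, DATS in red and vehicle in blue. In the basal panel DATS tumors 1 and 2 and vehicle tumor 3 are highest on both axes; in the luminal panel DATS tumor 1 is highest vertically, at 5.45, and near the left edge, at 7.98 on the horizontal axis.

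Keratins are anchored to desmosomes and hemidesmosomes, and 17 of 18 listed genes of these junctions were tested. Of them 11 had a log2 difference above 0, against 49.2% of all genes, the median was 0.09 and 0 passed the test. Perp, a desmosome protein, averaged 213 ± 52.3 FPKM in DATS tumors and 166 ± 34.7 FPKM in vehicle tumors (SD, n = 3 each). Jup, plakoglobin, had 155 ± 26.3 FPKM in DATS tumors and 129 ± 55.6 FPKM in vehicle tumors, Col17a1 of hemidesmosomes 92.2 ± 39.5 and 68.9 ± 23.1 FPKM in DATS and vehicle tumors, and the integrin chain Itgb4 56.7 ± 14.7 and 47.6 ± 14.6 FPKM (SD, n = 3 each). Vehicle tumor 2 was lowest for all 4 genes, as it was for 7 of the 8 keratins. Leukocyte markers were highest in that tumor: the 10 listed genes, all detected, summed to 262 to 511 FPKM in DATS tumors and to 1004, the value of vehicle tumor 2, and 242 and 339.8 FPKM in vehicle tumors. Their part in the low keratin values was not tested.

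The other 39 keratin genes had lower means, of at most 19.4 FPKM, and 8 of them passed the filter on low values. Krt23, a type I keratin found in simple epithelia, was the highest of them with 49.4, 28.6 and 5.78 FPKM in DATS tumors, against 11.4, 10.7 and 10.8 FPKM in vehicle tumors. Krt79 had 24.2, 13.3 and 0.735 FPKM in DATS tumors, against 13.2, 1.82 and 2.23 FPKM in vehicle tumors. Both had their highest value in the first DATS tumor and their lowest in DATS tumor 3, and neither passed the test (limma adjusted p 0.861 and 0.920). Krt10, of the upper epidermis, had 6.97, 5.83 and 6.94 FPKM in DATS tumors, against 4.88, 2.96 and 5.66 FPKM in vehicle tumors. Its groups did not overlap, and its limma adjusted p was 0.819. Of all genes tested, 6.72% likewise lay apart with DATS higher and 5.5% with DATS lower. Krt71, of the inner root sheath of the hair follicle, reached 8.22 FPKM, in vehicle tumor 3.

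Skin is a tissue that also makes Krt5, Krt14, Krt15 and Krt17, so its markers were read beside them. Of 14 epidermal symbols 9 were in the table, Ivl and Casp14 were listed at 0 in all 6 tumors, and the summed level was 8.63 to 10.7 FPKM in DATS tumors and 4.53 to 8.10 FPKM in vehicle tumors. Of 14 hair follicle symbols 13 were in the table, Krt25, Krt72, Krt73, Krt34 and Krt85 were listed at 0 in all 6 tumors, and the sum was 11.9 to 18.5 FPKM in DATS tumors and 12.4 to 42.1 FPKM in vehicle tumors. Most of the hair follicle sum was Padi3, which is not a keratin gene. Padi3 had 34.2 FPKM in vehicle tumor 1, where that sum was highest, and 7.36 FPKM in DATS tumor 2, where it was lowest. The basal keratins summed to 651 to 1317 FPKM in DATS tumors and 490.4 to 1361 FPKM in vehicle tumors. The part of skin in these values was not tested. A further list was set for keratins of stratified epithelia and wounds, with 3 of 7 tested. The 7 summed to 15.9 to 52.2 FPKM in DATS tumors and 12.1 to 13.8 FPKM in vehicle tumors. This list also held Krt23 and Krt20, which are not particular to such epithelia. Krt23 alone had 49.4 FPKM in DATS tumor 1, where the sum was highest, and 10.7 to 11.4 FPKM in vehicle tumors. Krt4, Krt13, Krt16 and Krt78 had at most 0.517 FPKM in any tumor, and Krt6a and Krt6b were not in the table. Of other cells, fibroblast markers summed to 985 to 1620 FPKM in DATS tumors and 1099 to 1823 FPKM in vehicle tumors, endothelial markers to 43.0 to 73.3 and 31.6 to 87.7 FPKM in DATS and vehicle tumors, and adipocyte markers to 8.68 to 72.8 and 16.3 to 20.4 FPKM in DATS and vehicle tumors. Most of the adipocyte sum was Fabp4, with 41.0, 8.11 and 66.4 FPKM in DATS tumors and 13.5, 18.4 and 15.7 FPKM in vehicle tumors. Adipoq had at most 10.3 FPKM, in DATS tumor 1. The part of fibroblasts, endothelium and adipocytes in the keratin values was not tested.

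The genes most like each keratin class over the 6 tumors were sought among 3336 other genes with an SD of at least 0.5 on the log2 scale. For the mean of the basal keratins they were Bcam, a laminin receptor of the basal cell surface (r = 0.98), Fam19a5 (0.98), AABR07053533.1 (0.98), AC141526.2 (0.98) and Ccl27, a chemokine made by keratinocytes (0.97). Bcam had 148, 166 and 73.9 FPKM in DATS tumors, against 70.1, 53.3 and 141 FPKM in vehicle tumors. For the mean of the luminal keratins they were Hnrnpa3 (r = 0.98), Mgst3, a microsomal glutathione transferase (0.97), Efna3, an ephrin ligand (0.97), Mir349 (0.96) and Rn60_X_0648.1 (0.96). Mgst3 had 77.4, 171 and 194 FPKM in DATS tumors, against 138, 76.2 and 121 FPKM in vehicle tumors. Several of the listed genes were low. Hnrnpa3 had 1.71 to 8.59 FPKM, and Mir349 had at most 5.35 FPKM and 0 in DATS tumor 1 and vehicle tumor 2. AC141526.2 had at most 5.38 FPKM and 0 in DATS tumor 3 and vehicle tumor 2. With 6 tumors and 3336 candidates, values of r this high describe these tumors and no more.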

How the data were processed

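RNA of 6 tumors was sequenced from standard Illumina libraries, per the labels' protocols. The authors deposited 1 table of FPKM per gene and tumor, per the file headers; aligner, counter, genome build and strand handling: not given in the sources used here. Samples were grouped by the treatment label, 3 DATS and 3 vehicle. Whole reads were recovered from the deposited FPKM for 100.0% of the 20891 genes above 0 (tolerance 1e-06), and the FPKM worth of 1 read was inversely proportional to the tumor's median-of-ratios factor. FPKM totals were 662528 to 710096 in DATS and 566304 to 656017 in vehicle tumors.

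The filter kept genes averaging at least 1 FPKM. The limma test (version 3.58.1, R 4.3.3; mean-variance trend, group only, two-sided) used log2(FPKM + 1), and a call needed a Benjamini-Hochberg adjusted p below 0.05. The fit was tested on simulated data. Differences on this scale understate changes of low genes. Keratin pairs were tested by exact permutation in scipy 1.17.1. The 8 members, the lists, the balance and the alternatives were chosen with earlier results of these data known; Epcam ratios were added later. Named genes were all 8 keratins, the 4 most abundant tested genes of a list or of the other keratins, and the 5 with the highest r to each keratin class. Alternatives were a pseudocount of 0.1, no filter, quantile normalization, equal totals, a replicate block, limma-voom on recovered reads and leaving out each tumor.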

Additional observations from a re-analysis of the deposited data

How the results depend on the processing

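The count of called genes was 0 under all 12 alternatives, with a lowest adjusted p of 0.138, without vehicle tumor 2. None of the 96 alternative values of the 8 keratins passed the threshold (lowest adjusted p 0.592), and 6 of them changed sign, each when 1 tumor was left out: Krt7 (0.18 without DATS tumor 1, 0.34 without vehicle tumor 1), Krt5 (-0.078 without vehicle tumor 2), Krt15 (-0.00062 without DATS tumor 1, -0.028 without vehicle tumor 2) and Krt17 (-0.011 without DATS tumor 2). The cause was not tested. With 1 tumor left out the log2 difference ran from -0.59 to 0.34 for Krt7, 0.037 to 0.78 for Krt8, 0.17 to 0.57 for Krt18, 0.036 to 0.80 for Krt19, -0.078 to 0.58 for Krt5, 0.43 to 0.98 for Krt14, -0.028 to 1.07 for Krt15 and -0.011 to 0.73 for Krt17. The luminal median ran from 0.10 to 0.68, the basal median from -0.00056 to 0.82 and the balance from -0.68 to 0.35. With quantile normalization the medians were 0.21 and 0.19 and with equal totals 0.26 and 0.18. With the replicate number as a block the lowest adjusted p was 0.910, 594 genes had an unadjusted p under 0.05 and the 8 differences were the same; deviations of same-numbered tumors had r of 0.15, -0.02 and -0.12, so the numbers were not taken as pairing. The count of keratin pairs passing the adjustment was 0 under each scaling and pseudocount tried (lowest adjusted p 0.0778, with equal totals). Each keratin value rested on 1808 or more reads, and each group held 3 tumors.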

Other observations

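Milk protein genes, which mark secretory luminal cells, ranked the tumors in another order than the luminal keratins. The 6 listed genes summed to 4981, 914 and 9.09 FPKM in DATS tumors 1, 2 and 3, against 1503, 34.1 and 80.3 FPKM in vehicle tumors 1, 2 and 3. DATS tumor 3, with the highest Krt8 and Krt18, had the lowest milk protein sum. DATS tumor 1 had the highest sum, with Krt8 at its lowest (467 FPKM) but Krt18 (578 FPKM) above every vehicle tumor. Vehicle tumors 1 and 2 went the other way. Vehicle tumor 1 was next highest both for Krt8 (641 FPKM) and for the sum, and vehicle tumor 2 combined a low Krt8 (467 FPKM) with a low sum. Csn3, kappa-casein, had 2870.4 FPKM in DATS tumor 1 and 7.497 FPKM in DATS tumor 3.

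Single tumors also stood out for keratins of low level, chosen here after their values were seen. Krt20, a type I keratin of gut and bladder epithelium and of Merkel cells, had 8.39 FPKM (161 reads) in DATS tumor 3 and at most 9 reads in each of the other tumors. Krt77, a type II keratin of skin and sweat glands, had 6.04 FPKM (264 reads) in vehicle tumor 2, 1.36 FPKM (56 reads) in DATS tumor 3 and at most 9 reads in each of the other tumors. Among other intermediate filament genes, Vim, vimentin of mesenchymal cells and leukocytes, had 336, 389 and 527 FPKM in DATS tumors, against 332, 1116 and 415 FPKM in vehicle tumors, and was highest in the tumor with the lowest keratin total. Lmna, of the nuclear lamina, ranged less, at 170.0 ± 44.2 FPKM in DATS tumors and 152 ± 9.97 FPKM in vehicle tumors (SD, n = 3 each).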
